A study of Rattus norvegicus with 82 samples.

Results

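The genes of the cytosolic ribosomal proteins were followed in cardiomyocytes of the rat right ventricle (RV) and left ventricle (LV) under pressure load. Members were taken by symbol, as genes beginning with Rpl or Rps and a number, together with Rplp0, Rplp1 and Rpsa, without the S6 kinases (Rps6k) and Rps19bp1, and with a mean raw count of at least 10 over all libraries. Such a symbol was carried by 85 of the 17337 genes, and 78 reached the minimum, 47 of the large and 31 of the small subunit. The 7 below it were Rplp2, Rps19, Rps9, Rpl37a, Rpl39l, Rpl37a-ps1 and Rps4x-ps1, with mean counts between 0.02439 and 8.366. All 78 members passed the filter on low counts and were tested among 11954 genes.

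The animals were F1 rats from female Wistar Kyoto and male Lewis parents. The loaded chamber was the RV after pulmonary artery banding (PAB) and the LV after aortic banding (AOB). The clip was set in young animals, so that load rose as they grew, and sham animals had the operation without a clip. Groups ending in H were taken while hypertrophy was compensated, and groups ending in F after decompensation to failure. By the sample labels the Sham-H (7 animals, 3 of them male), PAB-H (6, 4 male) and AOB-H (6, 2 male) rats were 11 weeks old, 7 weeks after surgery. The Sham-F (9, 4 male) and AOB-F (7, 4 male) rats were 31 weeks old, 26 weeks after surgery, and the PAB-F rats (6, 4 male) were 28 weeks old, 22 weeks after surgery, and so younger than the sham animals they were set against. The study's text gives somewhat higher ages. Stage and age cannot be told apart in these groups. In sham animals the stage letter stands for age together with time after surgery, in different animals, and these cannot be told apart either. Each of the 41 animals gave 1 RV and 1 LV library, 82 in 12 groups. Hearts were digested with collagenase by retrograde perfusion and the cardiomyocytes were enriched by filtering and slow centrifugation, without a sort, and total RNA was sequenced after depletion of ribosomal RNA.

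Libraries held 6675287 to 19665439 gene counts (median 13074486). Of the 11 fixed ventricular cardiomyocyte markers all were present, and they took between 6.821% and 15.5% of a library's counts. Markers of other cells were low, with ranges of 0.01512% to 0.3012% for 10 fibroblast genes, 0.06232% to 0.4948% for 8 endothelial genes and 0.001376% to 0.02689% for 8 macrophage genes, with none at 0 throughout. On the first principal component of the genes that are no members, which held 47% of their variance, the LV libraries of the older animals lay between 2.8 and 90 and all RV libraries at or below 7.2. Against this, 5 LV libraries lay with the other stage, namely Sham-H 4 and 5 and PAB-H 2 with the older LV libraries, and PAB-F 5 and AOB-F 5 with the younger ones, on either side of a midpoint of 30.95. No label gives a date or batch of preparation. Results that rest on these 5 libraries are given with and without them.

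The ribosome joins a small subunit, which decodes the messenger RNA, with a large subunit, which forms the peptide bond. Each subunit is built from ribosomal RNA and 1 copy of nearly every ribosomal protein, so that a cell needs its ribosomal proteins in about equal amounts, and a surplus of a single protein is degraded. Their messenger RNAs share a start with a run of pyrimidines, the 5′ terminal oligopyrimidine (TOP) tract, through which growth signalling by mTOR adjusts their translation together. Striated muscle also makes Rpl3l, a paralog that takes the place of Rpl3 near the peptidyl transferase centre, and Rpl3 is known to return in growing or injured muscle. Heart muscle cells that enlarge under load need more ribosomes, and their number is known to follow from rRNA synthesis and translation as well as from these mRNAs. The messenger level measured here does not give the protein level.

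Levels between genes are compared per length, as FPKM (fragments scaled by gene length and library size). The highest median levels over all libraries were those of Rplp1, a protein of the acidic stalk, at 625.6, Rpl10 at 600.3 and Rps2 at 575.5. The lowest were those of Rps6, the S6 kinase substrate, at 3.969, Rpl8 at 0.7064 and Rpl7a at 0.4796. The median over the 78 members was 154 FPKM, 52 members lay above 100 and 4 below 10. Several members have near-identical copies elsewhere in the genome, and reads that fit more than 1 place or gene may have been lost from them. Levels as far under the rest as those of Rps6, Rpl8 and Rpl7a are therefore uncertain as levels of these mRNAs, and their cause was not tested.

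**Figure D1:**
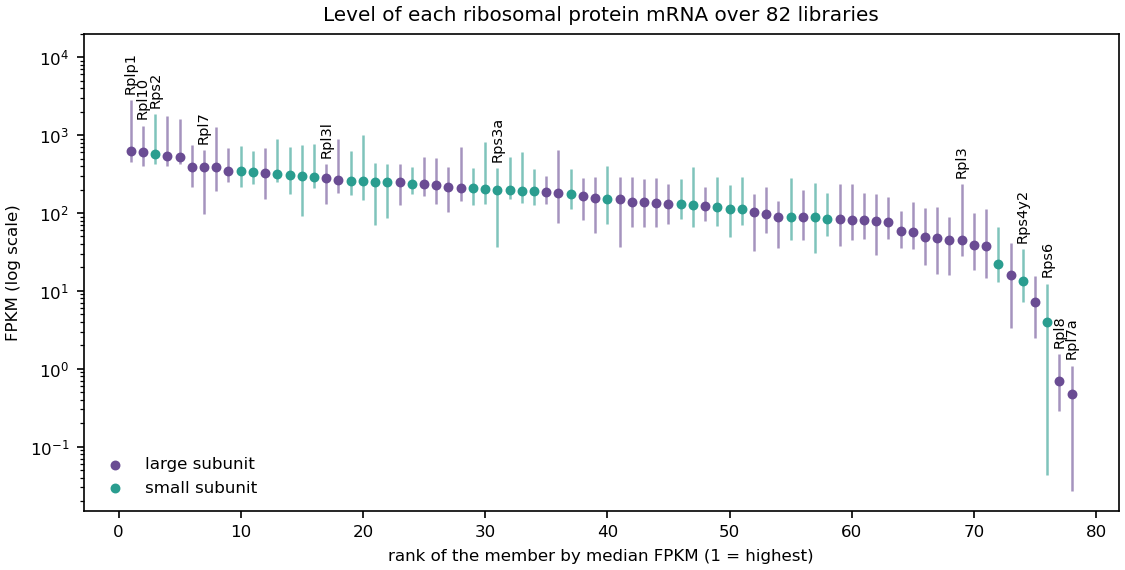
Level of each of the 78 members as FPKM on a log axis, ordered by rank and coloured by subunit, with the point at the median and the line from the lowest to the highest of the 82 libraries. Rplp1, Rpl10 and Rps2 stand highest and Rps6, Rpl8 and Rpl7a lowest, with 52 members above 100 FPKM.

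Most members moved together from library to library. Within groups the correlation of a member's log2 level with the mean of the others had a median of 0.7151 over the members, and it was over 0.5 for 60 members, as a description over 82 libraries that share depth and preparation. It was lowest for Rps6 (0.131), Rpl7 (0.1562) and Rps4x (0.1696), and 7 members were under 0.25. The ratio of a member to the mean of all members, a measure of balance among subunit mRNAs, had a standard deviation over the libraries of 0.3306 on the log2 scale for the median member and of over 0.5 for 13 members. The largest deviations were those of Rps6 (1.696), Rps3a (0.9499), Rpl5 (0.8317), Rpl7 (0.8227) and Rps4x (0.7074). So the mRNA balance varied less for most members than for a small set led by the members just named. It was not compared with the spread of other genes, and the value for Rps6 rests on raw counts down to 1.

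The share of all counts taken by the members gives the size of the family. In the RV sham animals the share was 0.92% to 1.176% at the H stage (median 1.055%) and 0.8824% to 1.262% at the F stage (median 1.004%). In the LV the Sham-H libraries ran from 0.8663% to 1.48% (median 1.019%) and the Sham-F libraries from 1.348% to 1.994% (median 1.62%). LV PAB-F ran from 1.021% to 1.83% (median 1.642%) and LV AOB-F from 1.226% to 2.456% (median 1.667%). The mean share in LV Sham-F was thus 1.53 times that of RV Sham-F and 1.46 times that of LV Sham-H, and the groups RV Sham-F and LV Sham-F did not overlap. LV Sham-H overlapped LV Sham-F through Sham-H 4 (1.48%) and 5 (1.436%), which are among the 5 libraries named above.

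**Figure D2:**
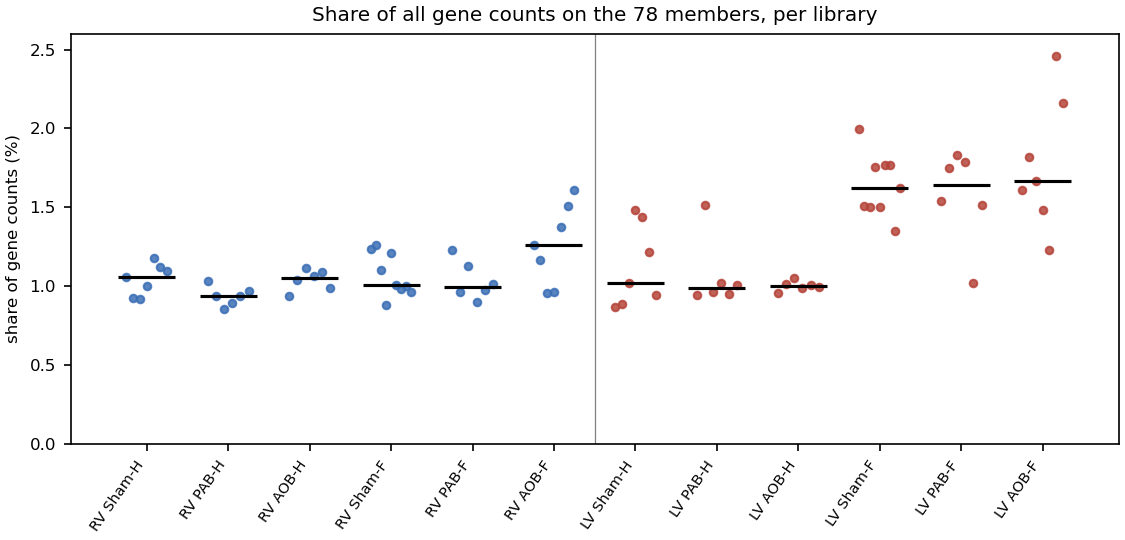
Share of all gene counts taken by the 78 members, in percent, for each of the 82 libraries (points) in the 12 groups, with the group median as a bar. The 3 LV groups of older animals have medians of 1.62% to 1.667%, and the other groups have medians of 0.9384% to 1.259%.

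The ventricles of the same sham animals were compared first, which asks whether the family differs between RV and LV without banding. Called means an adjusted p under 0.05 in edgeR's quasi-likelihood test, adjusted over all genes. The fit held no term for the animal, so its p-values do not use the pairing of RV and LV. A fit with the animal as a block was an alternative. In the older sham animals (Sham-F) 49 members were lower and 14 higher in the RV, and 15 were not called. Of all tested genes 38.6% were called lower and 35.6% higher, and the median log2 difference was -0.51 over the members against -0.07 over all genes. The large subunit had 27 lower and 9 higher of 47, and the small subunit 22 lower and 5 higher of 31, with the same direction leading in both. By the study's own criteria (a log2 difference over 1, p up to 0.01, mean count over 50) 21 members differed, beside 27.7% of all genes.

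Rps14, a small subunit protein of the platform, had normalised counts of 2042 to 3290 (median 2367) in the 9 RV Sham-F libraries and of 5098 to 10820 (median 7278) in the LV libraries of the same animals. The log2 difference was -1.52 (SE 0.170, adjusted p = 1.8e-12 by edgeR). Rps15 ran from 1104 to 2164 (median 1502) in the RV and from 2803 to 6482 (median 4605) in the LV, a log2 difference of -1.46. In neither gene did the groups overlap, and every LV library was the higher.

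Rplp0, Rplp1 and Rplp2 form the stalk of the large subunit that recruits the elongation factors. Rplp1 had 3484 to 4649 normalised counts (median 4292) in RV Sham-F and 7152 to 18780 (median 11580) in LV Sham-F, a log2 difference of -1.46 (SE 0.175). Rplp0 had 6522 to 8115 (median 7699) in the RV and 13660 to 20820 (median 18010) in the LV, a log2 difference of -1.17 (SE 0.134). Both were lower in the RV without overlap, and Rplp2 was under the minimum count. Other members with a known role followed the same direction, with log2 differences of -1.27 for Rps2, -1.08 for Rps3 at the mRNA entry channel, -0.87 for Rpsa (also the laminin receptor precursor), -0.70 for Rpl10a and -0.47 for Rpl10 at the joining of the subunits. Rpl11, which with Rpl5 and 5S rRNA binds Mdm2, did not pass (0.32, SE 0.182), nor did Rps27a, made as a fusion with ubiquitin (-0.01, SE 0.184), or Rpl26 (0.18, SE 0.151).

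The members higher in the RV were led by those whose balance varied most. That spread was taken over the libraries of both ventricles and so contains this difference, and the match is not a separate result. Rps3a had 2147 to 3556 normalised counts (median 2445) in RV Sham-F and 448.9 to 1277 (median 638.9) in LV Sham-F, a log2 difference of 1.82 (SE 0.213, adjusted p = 6.9e-12 by edgeR). Rpl7 had 4124 to 5768 (median 5285) in the RV and 1150 to 2381 (median 1727) in the LV (1.60, SE 0.179). Rpl5, the partner of 5S rRNA, had 2152 to 3225 (median 2680) in the RV and 531.2 to 1602 (median 876.1) in the LV (1.59, SE 0.194). In all of these every RV library lay above every LV library, the reverse of Rps14 and the stalk proteins.

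Rps6 showed the largest difference, 2.46 (SE 0.441), at low counts of 89.78 to 263.6 (median 103.6) in the RV and 4.617 to 52.6 (median 16.66) in the LV. The groups did not overlap, and with levels this far under the other members the value rests on few reads.

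**Figure D3:**
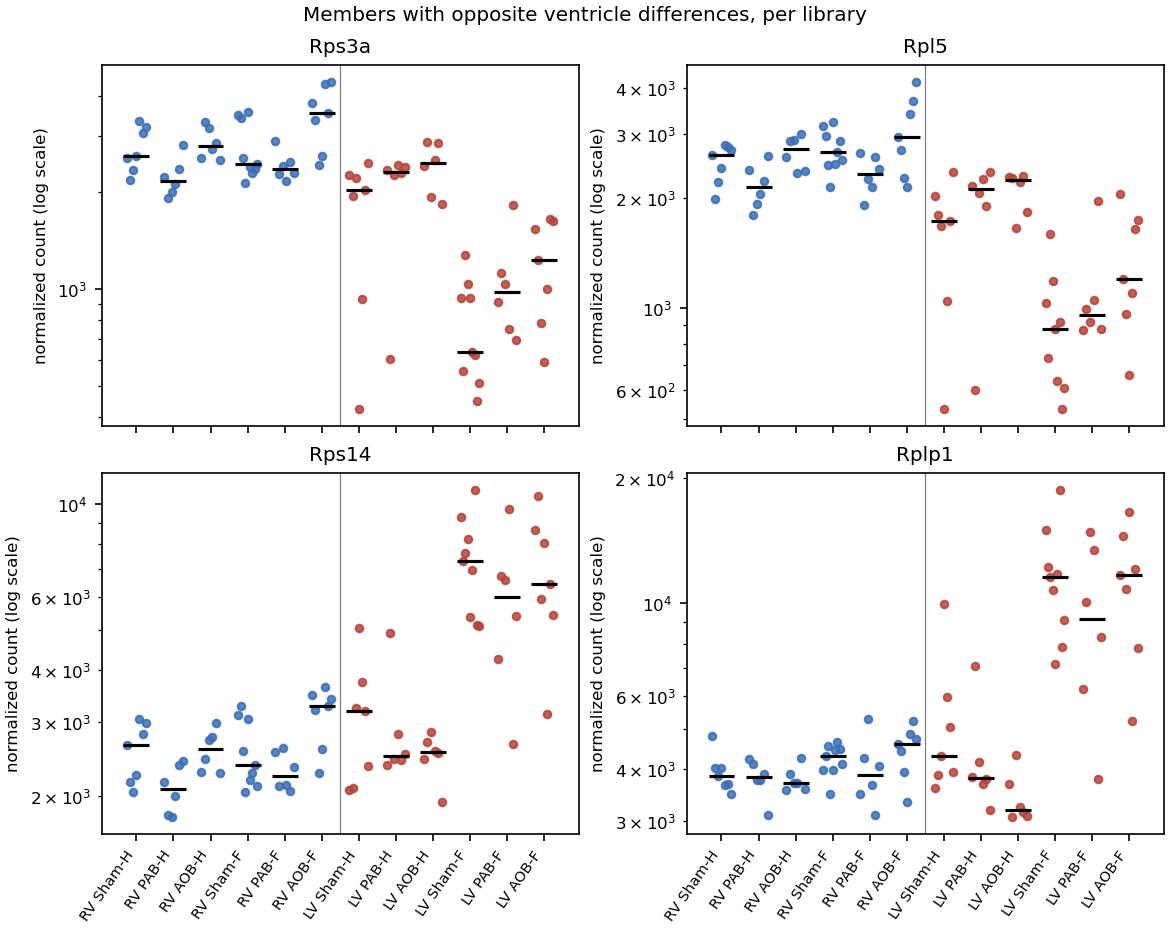
Normalised counts of Rps3a, Rpl5, Rps14 and Rplp1 on log axes in each library (points) of the 12 groups, with the group median as a bar, RV in blue and LV in red. In LV Sham-F the medians of Rps3a and Rpl5 (638.9 and 876.1) lie below those of RV Sham-F (2445 and 2680), and the medians of Rps14 and Rplp1 (7278 and 11580) lie above (2367 and 4292).

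Paralog pairs split in this comparison. Rps4x and Rps4y2 code for near-identical small subunit proteins. Rps4x had 3140 to 4179 normalised counts (median 3729) in RV Sham-F and 890.9 to 1979 (median 1478) in LV Sham-F, a log2 difference of 1.30 (SE 0.153), whereas Rps4y2 had 114.5 to 183.3 (median 136.8) in the RV and 198 to 427.2 (median 312) in the LV, a log2 difference of -1.19 (SE 0.174). Rpl36al was higher in the RV (1.18, SE 0.169) and Rpl36a lower (-0.70, SE 0.218). Rpl22 was lower (-0.51, SE 0.150) while Rpl22l1 did not pass (0.22, SE 0.174), but Rpl22 lost its difference (0.00) once the trend with gene length was fitted as an offset. Rps27 and Rps27l were both lower in the RV (-0.78 and -0.53), as were Rpl3 (-0.53, SE 0.229) and Rpl3l (-0.35, SE 0.114). The call for Rpl3 was lost in 5 of 9 fits that each left out 1 animal (Sham-F 4, 5, 6, 7 or 9), with a largest adjusted p of 0.08716 by edgeR, and that for Rpl3l was kept in all 9. The counts of such pairs could be split by reads that fit both copies, which was not tested.

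The same comparison in the failing groups used other animals. In PAB-F 52 members were lower and 10 higher in the RV (29% and 32.1% of all genes), with a median log2 difference of -0.69 against 0.03 over all genes. In AOB-F 34 were lower and 12 higher (35.1% and 32% of all genes), with a median of -0.30 against -0.05. By the study's criteria 17 members differed in PAB-F (17% of all genes) and 10 in AOB-F (21.9% of all genes). In PAB-F Rps14 differed by -1.36 (SE 0.207) and Rps3a by 1.19 (SE 0.256), and in AOB-F by -1.13 (SE 0.190) and 1.54 (SE 0.239).

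These 3 comparisons have no animal in common. The members higher in the RV in all 3 were 9, namely Rpl4, Rpl5, Rpl7, Rpl9, Rpl23a, Rpl36al, Rps3a, Rps4x and Rps6, and 33 were lower in all 3. No member was called in opposite directions and 71 had a single sign throughout. Over all tested genes 25.6% were higher and 24.1% lower in all 3. In these fits the family held more genes lower in the RV than higher, while over all genes both directions were about as common. Of the members 67 lay in the shortest 20% of the tested genes, and the other genes there leaned the same way. In Sham-F 43.9% of them were lower and 27.4% higher, in PAB-F 35.5% and 20.1%, and in AOB-F 36.8% and 27.2%. The counts over all 3 comparisons were not repeated with gene length as an offset, a fit given below.

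**Figure D4:**
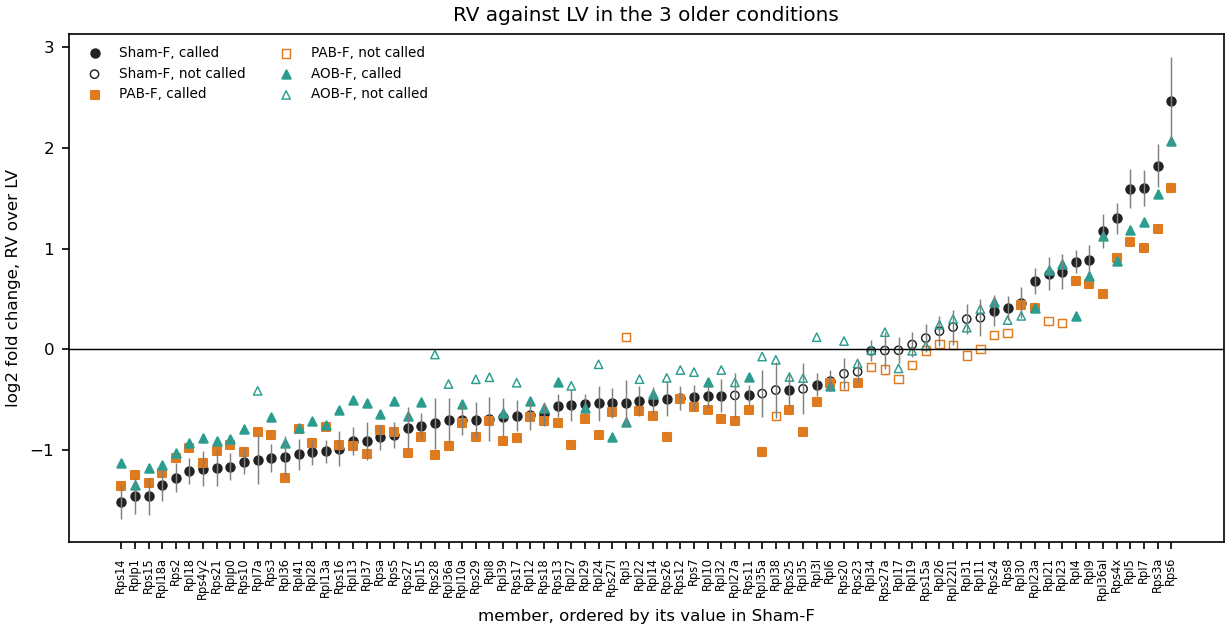
Log2 fold change of RV over LV for each of the 78 members, ordered by the value in Sham-F, for Sham-F (circles, with SE), PAB-F (squares) and AOB-F (triangles), filled where called. Members run from Rps14 at -1.52 on the left to Rps6 at 2.46 on the right, and 71 of 78 keep 1 sign in all 3 conditions.

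In the younger animals fewer members were called. In Sham-H 4 members were higher in the RV (9.62% of all genes) and 1 lower (11.4%), with a median of 0.02. Rpl21 was higher by 0.71 (SE 0.186), Rps3a by 0.65 (SE 0.234), Rpl5 by 0.65 (SE 0.215) and Rpl34 by 0.36 (SE 0.118), and Rplp0 was lower (-0.43, SE 0.151). With the animal as a block 15 members were called, all higher in the RV, and Rplp0 was no longer called. The share of all genes called with the block was not counted. Without Sham-H 4 and 5 and the other 3 LV libraries that lay with the other stage no member was called, so these calls rest on those libraries. In PAB-H 0 members were called by edgeR and by DESeq2 (0.125% of all genes). There 14 of the 78 members and 1303 of the 11954 genes had an unadjusted p under 0.05 by edgeR. In AOB-H 0 were called by both tools (7.98% of all genes). There 10 of the 78 members and 2392 of the 11954 genes had an unadjusted p under 0.05 by edgeR. With the animal as a block edgeR called 5 members in AOB-H, all higher in the RV.

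Whether the ventricles differed more at the F stage was tested as the difference of both contrasts in the sham animals. It was called for 42 members, 35 negative and 7 positive (18.6% and 23% of all genes), with a median of -0.55 against -0.03 over all genes. Rps14 (-1.24, SE 0.252, adjusted p = 0.000353 by edgeR) and Rps15 (-1.15, SE 0.273) led the negative side, and Rplp1 had -1.05 (SE 0.260). Rpl7 (1.23, SE 0.265) and Rps3a (1.17, SE 0.313) led the positive side, and Rps6 had 1.43 (SE 0.631) without passing.

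The calls by age lay in the LV. LV Sham-F had 49 members above and 9 below LV Sham-H (27.8% and 29.6% of all genes), in a comparison that shares the LV Sham-F libraries with that of the ventricles. The median was 0.52 against 0.04 over all genes, and 9 members met the study's criteria (8.05% of all genes). Rps14 rose from 2070 to 5042 (median 3190) to 5098 to 10820, a log2 change of 1.24 (SE 0.183), without overlap. Rps15 rose by 1.23 (SE 0.198), Rplp1 by 1.15 (SE 0.188) and Rplp0 by 0.76 (SE 0.144). Rps3a fell from 422.1 to 2473 (median 2036) to 448.9 to 1277 (median 638.9), a log2 change of -1.18 (SE 0.220), and Rps6 (-1.45, SE 0.462), Rpl7 (-1.15, SE 0.186), Rps4x (-0.90, SE 0.161) and Rpl5 (-0.82, SE 0.201) fell with it. The lowest Rps3a values of LV Sham-H, 422.1 and 930.7, came from animals 4 and 5. In the RV 0 members were called between the same stages by edgeR and by DESeq2 (0.0502% of all genes), and the median was 0.02. An unadjusted p under 0.05 by edgeR was found for 0 members and 601 of the 11954 genes.

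Other measures moved with this LV difference. The ventricular cardiomyocyte markers took 10.35% to 14.54% (median 13.74%) of the counts in LV Sham-H, 9.266% to 11.34% (median 9.958%) in LV Sham-F and 12.72% to 15.47% (median 13.56%) in RV Sham-F. The endothelial markers took 0.1039% to 0.2674% (median 0.1515%), 0.1754% to 0.3371% (median 0.2801%) and 0.06232% to 0.1069% (median 0.08263%) in the same groups, the fibroblast markers medians of 0.04499%, 0.06126% and 0.02413%, and the macrophage markers medians of 0.003806%, 0.007974% and 0.003022%. In RV against LV of Sham-F 38.6% of all genes were called lower and 35.6% higher. Of the 11 ventricular cardiomyocyte markers 6 were higher and 2 lower in the RV. Lower in the RV were 6 of 8 endothelial (1 higher), 6 of 9 fibroblast and 5 of 8 macrophage markers. Their part in the members' difference was not tested, and fewer cells of a type and less RNA per cell cannot be told apart. Without the 5 LV libraries that lay with the other stage the LV change was called for 62 members, 53 higher and 9 lower. The difference between the stages was then called for 58. These libraries were chosen after their values were seen, for lying across the midpoint between the stages. The component used correlated with that of the members (0.839 over 82 libraries). Leaving them out widens the stage difference by the choice itself, so the larger counts are not a separate result. The share of all genes called in that fit was not counted, so whether the members stood apart from other genes in it was not tested.

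Gene length also moved with it. Of the members 67 lay in the shortest 20% of the tested genes, and the 2324 other genes there had a median of -0.25 in RV against LV of Sham-F, with 43.9% lower and 27.4% higher. With the trend on gene length as an offset 27 members were lower and 23 higher, at a median of -0.15, and of the 63 calls 41 were kept and 5 had changed sign. In AOB-F the offset gave 25 lower and 19 higher, at a median of -0.00, in PAB-F 35 lower and 19 higher, and in LV Sham-F against LV Sham-H 36 higher and 17 lower. The excess of members lower in the RV was thus smaller than without the offset, and with it Rps3a in Sham-F and Rps14 in PAB-F were called in the same directions as before. The share of all genes called with the offset was not counted.

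The recorded start sites of the members were examined for the run of pyrimidines known from TOP mRNAs. Windows around the recorded start were taken from RefSeq (rat GRCr8) for 63 of the 78 members, matched by gene ID or, for Rpl37 and Rpl35a, by symbol. A pyrimidine start, taken as a C at the recorded start followed by at least 4 bases that are each C or T, was present in 23 of them, 36.5%, against 3.11% of the 27457 genes with a window. The match was made on the strand of the gene and is a description of the recorded start only. The 30-base windows below are shown because genes that moved in opposite directions between the ventricles carry such a start, and others that moved as far do not. They run from 10 bases before the start through 20 bases from the start on, and capitals mark the pyrimidine run. Rps15, Rplp1 and Rplp0 were lower in the RV and Rps3a, Rps6 and Rpl5 higher. Rpl3 and Rpl3l are shown for the comparison with banding.
Rps15 (chr7:10068096-10068125, minus strand): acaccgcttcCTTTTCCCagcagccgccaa
Rplp1 (chr8:71290853-71290882, minus strand): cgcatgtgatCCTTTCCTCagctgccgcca
Rplp0 (chr12:46718371-46718400, minus strand): caccgcacttCTCTCgccaggcgtcctcat
Rps3a (chr2:173827023-173827052, minus strand): gtacttccgcCCTTTTggctctcagagcgg
Rps6 (chr5:106420521-106420550, minus strand): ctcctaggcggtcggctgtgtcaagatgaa
Rpl5 (chr14:1995206-1995235, minus strand): ctttcccacgtcgcttgcgtcctggaggtg
Rpl3 (chr7:113507971-113508000, minus strand): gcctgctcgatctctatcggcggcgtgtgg
Rpl3l (chr10:14258436-14258465, plus strand): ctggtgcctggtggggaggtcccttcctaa

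The medians of the members with and without the pyrimidine start lay close together. In RV against LV of Sham-F the median was -0.51 for the 23 members with it (15 lower, 2 higher) and -0.53 for the 40 without it (24 lower, 8 higher). In LV Sham-F against LV Sham-H the medians were 0.63 and 0.54, and in RV against LV of AOB-F -0.33 and -0.33. The recorded start may differ from the one used in these cells, which total RNA counts do not show.

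Banding of the pulmonary artery was compared with sham in the RV, the loaded ventricle. In PAB-H 0 members were called by edgeR and by DESeq2 (4.5% of all genes). But 74 of 78 lay below 0, with a median of -0.29 against 0.00 over all genes. An unadjusted p under 0.05 by edgeR was found for 28 of the 78 members and 2462 of the 11954 genes. The share of counts was 0.855% to 1.032% (median 0.9384%) in RV PAB-H and overlapped that of RV Sham-H. A fit to these 2 groups alone called 15 members, 14 lower and 1 higher, and the share of all genes called in that fit was not counted. In PAB-F 1 member was lower and 0 were higher by edgeR (3.42% and 7.66% of all genes), and DESeq2 called 2. An unadjusted p under 0.05 by edgeR was found for 7 of the 78 members and 3332 of the 11954 genes. The median was -0.18 with 70 of 78 members below 0. The member called by edgeR was Rpl3l, and its call was kept in 10 of 15 fits that each left out 1 library. It was lost without Sham-F 5, 8 or 9 or PAB-F 1 or 2, with a largest adjusted p of 0.2289 by edgeR and a log2 change of -0.29 without PAB-F 1. Markers of other cells moved in both groups. In RV PAB-H 9 of 9 fibroblast markers and 2 of 8 endothelial markers were higher, with a median of 1.37 for the former, and 0 of 11 ventricular cardiomyocyte markers were called (median -0.22). In RV PAB-F 5 of 9 fibroblast, 3 of 8 macrophage and 2 of 8 endothelial markers were higher. Their part in the values of the members was not tested. The difference of this response between the stages was called for 0 members by edgeR and by DESeq2, and for 0% of all genes. An unadjusted p under 0.05 by edgeR was found for 0 members and 177 of the 11954 genes.

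Banding of the aorta was compared with sham in the LV. In AOB-H 0 members were called by edgeR and by DESeq2 (0.0167% of all genes), with a median of -0.12. An unadjusted p under 0.05 by edgeR was found for 13 of the 78 members and 2387 of the 11954 genes. In AOB-F 10 members were higher and 1 lower (8.54% and 4.35% of all genes), and the median over the members was 0.05 against 0.04 over all genes. The calls thus fell on single members, while the family's median lay close to that of all genes. Of the 10 members, Rpl3 rose most (1.01, SE 0.241, adjusted p = 0.003682 by edgeR), followed by Rpl4 (0.70, SE 0.123) and Rps4x (0.68, SE 0.161), and Rps3a (0.64, SE 0.220), Rpl5 (0.57, SE 0.202), Rpl7 (0.56, SE 0.186) and Rps27l (0.57, SE 0.152) rose too. Rpl3 alone met the study's criteria, as did 1.21% of all genes. Several of these are the members that were low in the older LV. That low level was seen in the LV Sham-F libraries, which are also the reference here, so the overlap is not a separate result. A fit to LV AOB-F and LV Sham-F alone called 0 of the 11.

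Rpl3 and Rpl3l moved in opposite directions in the loaded LV. In the 7 LV AOB-F libraries Rpl3 had 1560, 1437, 1092, 762.0, 890.6, 3672 and 4045 normalised counts in animals 1 to 7, against 583 to 1302 (median 1008) in LV Sham-F. Rpl3l had 4736, 5028, 4882, 6479, 4716, 3271 and 2949, against 5345 to 7581 (median 6529), a log2 change of -0.47 (SE 0.122, adjusted p = 0.006351 by edgeR). Animals 6 and 7 were the highest for Rpl3 and the lowest for Rpl3l, and of the other 5 animals 3 lay within the sham range for Rpl3 and 2 above it. For Rpl3l every animal but animal 4 (6479) lay below the sham range.

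Without animals 6 and 7, a choice made after their values were seen, Rpl3 changed by 0.27 (SE 0.196, adjusted p = 0.45 by edgeR) and Rpl3l by -0.29 (SE 0.127, adjusted p = 0.17 by edgeR). Of the 11 members called, only Rpl4 remained (0.44, SE 0.115). The call for both paralogs therefore rests on these 2 of 7 animals, though Rpl3l values below the sham range were not confined to them. Their ventricular cardiomyocyte markers took 6.821% and 7.163% of the counts, against 9.266% to 11.34% in LV Sham-F, and animal 7, the highest for Rpl3, had 0.07589% of counts on fibroblast markers against a group median of 0.09765%.

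The RV of the same 2 animals was also high for Rpl3, with 2109 and 2182 normalised counts against 650.7 to 839.2 in the other 5 RV AOB-F libraries. The log2 change in RV AOB-F was 0.82 (SE 0.243, adjusted p = 0.41 by edgeR) for Rpl3 and -0.00 for Rpl3l. Rpl3l ran from 4497 to 5667 in RV AOB-F and from 4549 to 5652 in RV Sham-F.

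The same pair was then followed in the other loaded groups. In RV PAB-F Rpl3 had 1891, 964.8, 930.7, 661.4, 858.7 and 785 normalised counts in animals 1 to 6 (0.61, SE 0.253, adjusted p = 0.097 by edgeR), and Rpl3l had 2370, 3277, 4093, 4699, 4036 and 4402 against 4549 to 5652 (median 5019) in RV Sham-F (-0.39, SE 0.128, adjusted p = 0.036 by edgeR). In RV PAB-H Rpl3 had 955, 1510, 797.8, 855.3, 624.3 and 579.1 (0.54, adjusted p = 0.24 by edgeR) and Rpl3l 4183, 2786, 3915, 4085, 4507 and 5213 (-0.33, adjusted p = 0.13 by edgeR). In LV AOB-H animal 6 had 1854 for Rpl3 and 2440 for Rpl3l, where the other 5 had 646.2 to 879.0 and 4744 to 5268. In each of the 4 loaded groups the library with the most Rpl3 was the one with the least Rpl3l, and this was also so in 4 of the 8 other groups (RV Sham-F, LV Sham-F, RV AOB-H and LV PAB-F).

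As a ratio of levels per length, Rpl3l to Rpl3 in FPKM was 6.644 to 10.05 (median 8.482) in RV Sham-H and 1.782 to 8.699 (median 4.679) in RV PAB-H. It was 5.024 to 10.71 (median 7.966) in RV Sham-F and 1.211 to 6.865 (median 4.396) in RV PAB-F. In the younger LV it was 5.878 to 8.361 without a band (median 7.109) and 1.272 to 7.093 with it (AOB-H, median 6.217). In the older LV it was 3.968 to 11.57 in Sham-F, with a median of 6.721, and 0.7046 to 8.217 in AOB-F, with a median of 3.382. All 4 loaded groups overlapped their sham group, and the lowest library of each lay below every sham library. The same held in the 4 banded groups of the other ventricle, where the lowest ratio was 3.806 in RV AOB-H, 2.047 in RV AOB-F, 5.104 in LV PAB-H and 3.61 in LV PAB-F.

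Fibroblast markers moved with it in 3 of these 4 libraries. The library with the most Rpl3 held 0.3012% of counts on fibroblast markers in RV PAB-H (group median 0.05238%), 0.1989% in RV PAB-F (group median 0.05115%) and 0.1481% in LV AOB-H (group median 0.05042%), each the highest of its group, and in LV AOB-F it was below the group median, as given above. The same was seen in most groups without load. The library with the most Rpl3 was highest in fibroblast markers in RV and LV Sham-H, RV and LV Sham-F, RV AOB-H and LV PAB-H. It was not so in RV AOB-F and LV PAB-F. Other markers moved too. In LV AOB-H animal 6 had 0.4948% of counts on endothelial markers, against 0.1232% to 0.1606% in the other 5. Macrophage markers took 0.008614% and 0.01123% of counts in the RV of AOB-F animals 6 and 7, above the other 5 RV AOB-F libraries and every RV Sham-F library (at most 0.0045%), and 0.02184% and 0.02254% in their LV, above every LV Sham-F library (at most 0.01705%) though below LV AOB-F animal 2 (0.02689%). Non-muscle cells express Rpl3 and lack Rpl3l, and the part of their RNA in the rise of Rpl3 was not tested.

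**Figure D5:**
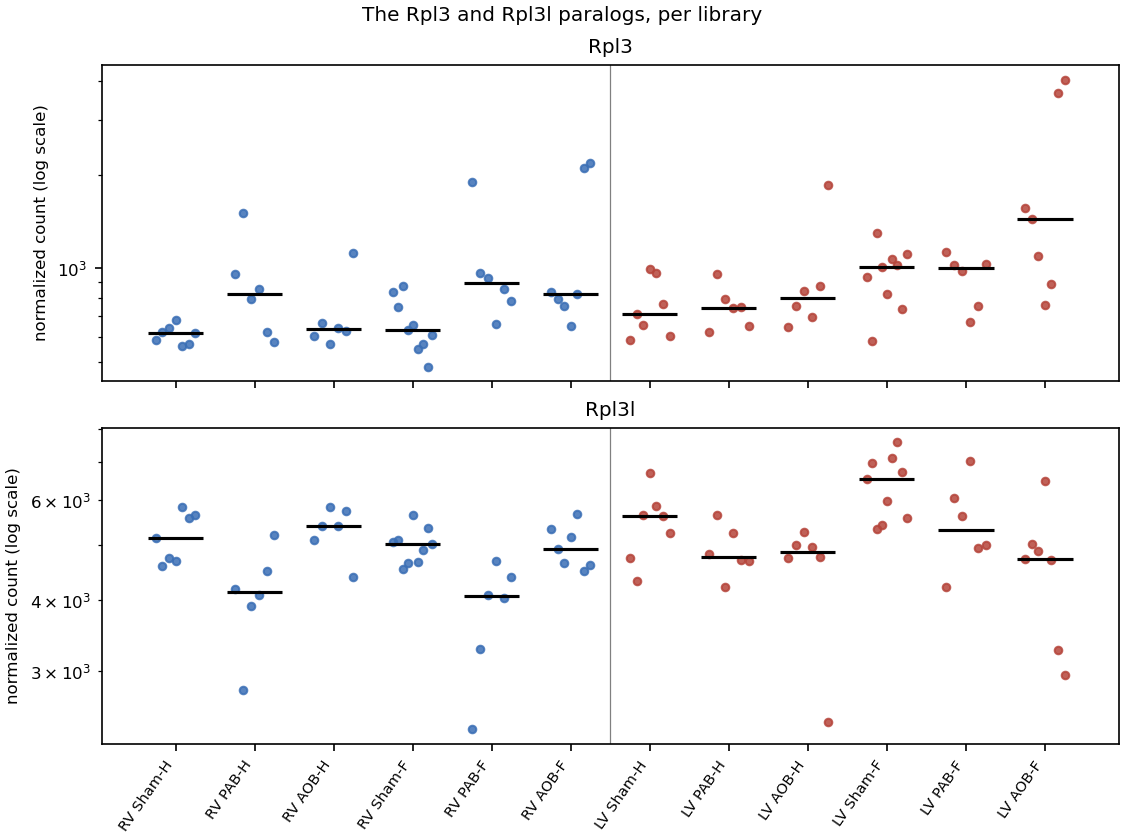
Normalised counts of Rpl3 and Rpl3l on log axes in each library (points) of the 12 groups, with the group median as a bar, RV in blue and LV in red. Rpl3 reaches 4045 in LV AOB-F, where the libraries of all 4 sham groups stay at or below 1302, and Rpl3l falls to 2370 in RV PAB-F.

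The ventricle that the band did not load showed no called member. Both edgeR and DESeq2 called 0 members in LV PAB-H (0% of all genes called by edgeR), LV PAB-F (0%), RV AOB-H (0%) and RV AOB-F (0.0669%). An unadjusted p under 0.05 by edgeR was found for 0, 1, 0 and 16 of the 78 members in this order. Of the 11954 genes it was found for 305, 454, 171 and 517. In RV AOB-F 77 of 78 members lay above 0, with a median of 0.25 against 0.01 over all genes, and the member share was 0.9563% to 1.61% (median 1.259%) with animals 6 (1.507%) and 7 (1.61%) highest. The difference in response between the loaded and the other ventricle was called for 0 members by both tools in PAB-F (0.351% of all genes) and in AOB-F (0%). An unadjusted p under 0.05 by edgeR was found for 2 members and 1538 of the 11954 genes in PAB-F. In AOB-F it was found for 3 members and 1161 genes. A missed threshold does not show that both ventricles responded alike.

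The genes that work beside the ribosomal proteins were counted from lists. Fau, which codes for a ribosomal protein fused to a ubiquitin-like protein, and Gnb2l1 (Rack1 on the small subunit) were lower in the RV of Sham-F (-1.21 and -0.93), as most members were. Of 19 other TOP mRNAs, for translation factors and RNA-binding proteins, 11 were higher and 6 lower, with a median of 0.35. Npm1 (2.55, SE 0.246), Hnrnpa1 (2.10, SE 0.224), Eif4a2 (1.84, SE 0.200) and Nap1l1 (1.79, SE 0.192) led them. Of 49 ribosome biogenesis genes 25 were higher and 13 lower, with a median of 0.36, led by Npm1, the nucleolar protein Ncl (2.41, SE 0.282), Gnl3 (1.83) and the export adaptor Nmd3 (1.73). Of 66 mitochondrial ribosomal protein genes 33 were higher and 19 lower, with a median of 0.26. The medians of these last 3 lists lay on the other side of 0 from that of the cytosolic members, with 35.6% and 38.6% of all genes called higher and lower.

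Between LV Sham-F and LV Sham-H the medians of these lists had the other sign, and this comparison shares the LV Sham-F libraries with the one before. Fau (1.04) and Gnb2l1 (0.65) were higher in the older LV. Of the other TOP mRNAs 4 were higher and 9 lower (median -0.29), of the biogenesis genes 9 and 24 (median -0.22), and of the mitochondrial ribosomal proteins 15 and 25 (median -0.11). In LV AOB-F 10 of 19 other TOP mRNAs and 14 of 49 biogenesis genes were higher and 0 lower, at medians of 0.28 and 0.28, with Npm1 (0.90), Ddx21 (0.74), Pabpc1 (0.73) and Nop14 (0.69) among them, while 0 mitochondrial ribosomal protein genes were higher and 2 lower. There 8.54% of all genes were higher and 4.35% lower. Of 10 growth regulators Myc was called there (0.87, SE 0.268). Without animals 6 and 7, a choice made after their values were seen, 1 of the 19 other TOP mRNAs, 2 of the 49 biogenesis genes and 0 of the 10 growth regulators were called, at medians of 0.16, 0.03 and 0.02, where 1.91% of all genes were higher and 0.959% lower. The list counts thus rest on these 2 animals, as those of the members do. Markers of other cells were also higher in LV AOB-F, 3 of 8 for macrophages, 2 of 8 for endothelial cells and 1 of 9 for fibroblasts, and their part was not tested. Of the 10 growth regulators in RV against LV of Sham-F, 1 was higher (Rps6kb1, an S6 kinase, 1.46) and 5 lower, with Mycn furthest (-2.95). Of all genes 35.6% were higher and 38.6% lower there.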

How the data were processed

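RNA-seq of 82 libraries was analysed from 1 table of 17337 genes. Raw counts were made by the authors with the nf-core pipeline (Trim Galore, STAR, rat genome Rnor6.0 with a UCSC annotation, featureCounts), and reads overlapping several features were not assigned, which can lower genes with near-identical copies. The deposited normalized counts (signal) came from DESeq2 1.28.1 size factors, set by the authors, and the FPKM values were deposited by the authors as well. The authors' tables of fold changes and p-values were not used. All columns matched a sample (0 unmatched), and no library was a copy of another (smallest chi-square per gene 4.55).

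Tests used the raw counts in 1 edgeR 4.0.16 quasi-likelihood fit (R 4.3.3) with a mean per group, TMM factors and filterByExpr (11954 genes, biological coefficient of variation 0.244). Adjusted p-values are Benjamini-Hochberg values over all tested genes, called under 0.05, and tests are two-sided. Normalised counts in the text are raw counts scaled to a common TMM effective size (13279120, the mean), and FPKM values served only for levels per length. The members and the gene lists were chosen with earlier results of these data known. Members named were those with a paralog, the 3 called with the largest change per comparison, the 3 highest and lowest in FPKM, the 3 least correlated with the others and subunits with a textbook role. Rps2, Rps14, Rps15 and Rpl34, and the members listed as higher in the RV throughout, were also named after their values were seen where that rule did not reach them.

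RV and LV libraries of 1 animal pair by the labels (deviations correlated between -0.141 and 0.666), so the animal as a block was an alternative. Numbers shared across treatments name animals only. Other alternatives were RLE factors, library totals, TMM without members, no filter, a fit to the compared groups, sex, gene length, DESeq2 1.42.0 and leaving out libraries. The code was tested on simulated data. GC content and protein sequences were not used here.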

Additional observations from a re-analysis of the deposited data

Results flagged for a closer look

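Of 144 group and value combinations examined for a library lying far from the rest of its group, 22 did. The cutoff lets about 1 in 20 independent sets pass by chance. The 12 kinds of value examined came from the same libraries and moved together, so the 22 cannot be set against that rate. LV PAB-H 2 was the most frequent. Its member share was 1.517% (next 1.021%), and it had 605.9 normalised counts of Rps3a (next 2270), 1761 of Rpl7 (next 4231), 598.2 of Rpl5 (next 1908), 2020 of Rps4x (next 3029), 2816 of Rpl4 (next 4376), 4912 of Rps14 (next 2813), 2903 of Rps15 (next 1792) and 7082 of Rplp1 (next 4148). On each of these values the library lay on the side of the older LV libraries.

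For Rpl3, LV AOB-H 6 stood out with 1854 (next 879.0), RV AOB-H 6 with 1116 (next 667.6) and RV PAB-F 1 with 1891 (next 964.8), and for Rpl3l LV AOB-H 6 with 2440 (next 4744). For Rps6 LV AOB-H 1 had 248.6 (next 104.7) and RV Sham-F 9 had 263.6 (next 154.5). RV Sham-F 4 had 4124 of Rpl7 (next 4951), LV PAB-F 5 had 1967 of Rpl5 (next 1056), LV AOB-H 3 had 2855 of Rps4x (next 3271) and RV PAB-H 1 had 3466 of it (next 3173). LV Sham-F 3 had 4581 of Rpl4 (next 3022), and for Rplp1 LV Sham-H 4 had 9942 (next 5950) and RV Sham-H 1 had 4806 (next 4018).

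The difference of RV against LV between Sham-F and Sham-H was called for 42 members, 7 positive and 35 negative, by an interaction contrast of the edgeR fit.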

How the results depend on the processing

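The 11 members called for LV AOB-F fell to 0 with a fit to those groups alone, to 7 with the replicate number as a replicate block and to 1 without animals 6 and 7, and ran from 4 (without AOB-F 7) to 14 when 1 library was left out, with 5 without AOB-F 6 and 7 without Sham-F 8 or 9. In RV PAB-F the 1 call became 2 with RLE factors, without the filter, with the length offset, with the replicate number as a block and with DESeq2, 8 with a fit to those groups alone and 3 without the 5 LV libraries lying with the other stage, and ran from 0 (without Sham-F 5, 8 or 9 or PAB-F 1 or 2) to 2. RV PAB-H, with 0, gave 15 with a fit to those groups alone, 2 without the 5 LV libraries and 0 to 8 leaving 1 out (8 without PAB-H 6). RV against LV in Sham-H (5) gave 2 with a fit to those groups, 15 with the animal block, 0 without the 5 LV libraries and 1 (without Sham-H 4 or 5) to 7, with 3 without Sham-H 6, and the split of 4 higher and 1 lower became 3 and 3 by library totals and 6 and 0 by the length offset. AOB-H (0) gave 1 with a fit to those groups, 1 with the length offset and 5 with the animal block. The replicate block, by animal or by number, changed no other count by more than 1.5 times. The larger counts held their size when 1 library was left out, at 60 to 65 in Sham-F, 54 to 62 in PAB-F, 42 to 51 in AOB-F, 56 to 61 in LV Sham-F against LV Sham-H and 33 to 56 for the difference between stages, and in the other comparisons the count stayed at 0 throughout. Rpl22 in RV against LV of Sham-F changed sign with the length offset (0.003). Over the settings that leave out no single library, values of named members kept direction and call in 1086 cases, lost the call in 51 and gained it in 2. The causes were not tested. In these fits only the members were counted, so no share of all genes stands beside the counts, except without AOB-F animals 6 and 7. Replicate numbers of sham and banded groups name different animals and were not taken as pairs. In each comparison the lowest correlation of same-numbered animals was 0.059 or less. The medians reached 0.16 in LV PAB-F, against -0.007 for other pairs there. These correlations do not decide the pairing, as RV and LV of the same PAB-H animals also went down to -0.141. The spread between replicates limits small shifts of the whole family, which single-gene calls do not reach.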
